A study of Mus musculus with 2 samples.

Results

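Replication-dependent histone genes encode the linker histone H1 and the core histones H2A, H2B, H3 and H4, and were taken here as every gene whose symbol starts with Hist1h, Hist2h, Hist3h or Hist4h. This gave 45 of the 2000 genes in the deposited files: 5 of type H1, 12 of type H2A, 11 of type H2B, 10 of type H3 and 7 of type H4. The cells were T cells from the spleens of lethally irradiated wild-type BALB/c mice that had been injected with spleen and bone marrow cells of wild-type C57BL/6 donors, a mouse model of haematopoietic cell transplantation. One group of recipients received tacrolimus, a calcineurin inhibitor, and the other received anti-IL-2, a monoclonal antibody to a cytokine that drives T-cell growth. Both treatments ran from day 0 to day 6, when the spleens were collected, and both groups shared the irradiation, the donor cells and the collection day. Each treatment was 1 droplet-based single-cell library made with a 5′ kit. The tacrolimus library held 1688 cells and the anti-IL-2 library 1551 cells, and 4 cell barcodes occurred in both. With 1 library per treatment there was no replicate check and no test, and treatment and library cannot be told apart. The number of mice pooled per library and their ages are not given in the sources used here.

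Cells make new histones while they copy their DNA, and most of their histone messenger RNA comes from these clustered genes. The transcripts are unusual in ending in a short stem-loop instead of a poly(A) tail. The stem-loop is bound by the protein Slbp, and the transcripts are normally degraded when DNA synthesis ends. Activated T cells divide rapidly, so these genes are commonly read as a sign of replicating cells.

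In the GENCODE M21 annotation of mm10, 44 of the 45 members were found. Of these, 41 lay on chromosome 13 between positions 21716422 and 23764406, and 3 lay on chromosome 3. The row Hist2h2bb.1 had no match and is described by its values only. The annotation holds 70 genes with such names, 67 of them protein-coding, so the 45 members are a part of the family. A single exon was annotated for 42 members. Coding sequences were much alike, as compared between annotated genes of this family with equal coding length. At least 98% identity to another gene was found for 30 members, of which 28 had such a match among the members themselves, and 4 had an identical member. Reads of such copies can be split or lost in counting, so values of single members are less certain than the sum.

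A stem of 6 base pairs closed by a loop of 4 bases was found after the stop codon in the annotated transcripts of 30 members. The search asked for a stem that opens with GG and closes with CC and a loop that opens with TT, with G-T pairs allowed. There were 5 different stem-loop sequences among them, and 18 members shared one, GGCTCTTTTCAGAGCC. They are shown because this element defines the class. For some members without a match, such as Hist1h1b, the annotated transcript ends at the stop codon. The search could not find a stem-loop in those, so a missing match does not mean that the gene lacks one. Capitals mark the arms of the stem, and the transcripts are written as DNA, 5′ to 3′.
Hist1h1e: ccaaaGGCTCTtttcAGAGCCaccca
Hist1h2ae: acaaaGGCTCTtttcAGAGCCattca
Hist1h2bj: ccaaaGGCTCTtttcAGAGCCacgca
Hist1h3e: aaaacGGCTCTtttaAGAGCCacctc
Hist2h2ac: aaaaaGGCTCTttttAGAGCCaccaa
Hist1h4i: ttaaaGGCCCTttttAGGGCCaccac
Hist1h4d: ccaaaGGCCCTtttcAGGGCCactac

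A RefSeq promoter sequence was found for 40 members. In the 250 bases before the start, on either strand, the TATA box TATAAA was in 23 of the 40 promoters, or 57.5%, against 12.97% of 27025 mouse promoters. The CCAAT box, CCAAT, was in 35 of the 40, or 87.5%, against 34.46% of all promoters. It was in every H1, H2A, H2B and H3 promoter examined and in 1 of 6 H4 promoters. The octamer-type motif TTTGCAT was in 9 of the 40, or 22.5%, against 4.06%. All 9 were H2A or H2B promoters. Windows of H2A and H2B genes whose starts lie close together and face apart can overlap. The same site can then be counted for both genes, as for Hist1h2ae and Hist1h2bg, so these promoters are not all separate. None of the 3 motifs contains another. A match is a description of these letters and not a shown binding site. The 140 bases before the start are printed for the most abundant H1, H2A, H2B and H4 members, because these genes carry much of the results that follow. Capitals mark matches to the motifs. Coordinates are those of RefSeq on GRCm38.p6.
Hist1h1b, chr13:21780626-21780765, minus strand: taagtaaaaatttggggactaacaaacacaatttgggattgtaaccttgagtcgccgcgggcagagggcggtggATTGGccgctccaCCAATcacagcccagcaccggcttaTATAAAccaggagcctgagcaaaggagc
Hist1h2ae, chr13:23571221-23571360, minus strand: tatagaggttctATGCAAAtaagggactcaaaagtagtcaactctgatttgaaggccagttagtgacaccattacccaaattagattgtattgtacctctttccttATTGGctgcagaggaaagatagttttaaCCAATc
Hist1h2bj, chr13:22043058-22043197, plus strand: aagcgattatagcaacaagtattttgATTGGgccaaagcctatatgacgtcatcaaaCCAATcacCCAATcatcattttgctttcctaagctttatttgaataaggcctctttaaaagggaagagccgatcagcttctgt
Hist1h4i, chr13:22041363-22041502, minus strand: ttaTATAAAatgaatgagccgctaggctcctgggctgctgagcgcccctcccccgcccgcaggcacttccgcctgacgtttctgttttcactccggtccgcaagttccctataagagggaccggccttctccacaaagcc

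Cells were assigned to a CD4 gate if they had a UMI, a count of 1 tagged transcript molecule, of Cd4 and none of Cd8a or Cd8b1. They were assigned to a CD8 gate if they had a UMI of Cd8a or Cd8b1 and none of Cd4. The tacrolimus library gave 1051 CD8 and 335 CD4 cells, and the anti-IL-2 library gave 849 CD8 and 400 CD4 cells. Within a gate, cells were split by 4 cell-cycle genes that are not members. Cdc6 and Mcm2 load and form the replicative helicase and stand for S phase, and Cdc20 and Ccnb2 act in mitosis. A cell therefore had S-phase genes only, mitotic genes only, both kinds, or neither kind. These are classes of detection and not measured phases, since a cell of low depth can miss a gene that it expresses.

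In the tacrolimus library UMIs could be read back from the deposited values, so levels are given as UMIs per 10000 UMIs of the cells, with exact Poisson 95% intervals. In the anti-IL-2 library, whose values had been batch-integrated, only detection was recovered. That library is described by shares of cells with at least 1 UMI, with exact binomial 95% intervals. Both kinds of interval cover counting error only. UMIs of a 5′ kit count molecule ends, so levels are not divided by transcript length. How well transcripts without a poly(A) tail were captured was not tested. Levels, shares and rankings of histone genes are therefore those of captured transcripts only. The median cell had 12074 UMIs and 399 detected genes of the 2000 in the tacrolimus library, and an estimated 7738 UMIs and 285 genes in the anti-IL-2 library. Of 7 T-cell markers, 2 were measured, Cd5 and Cd6, and at least 1 of them was detected in 77.3 to 89.0% of cells of each gate and library. Genes listed as markers of other cells were found too, and whether the T cells themselves expressed them was not tested. In each gate and library, myeloid markers were in 60.0 to 92.9% of cells, mostly Cst3, and plasma-cell markers in 30.8 to 59.7%, mostly Xbp1. NK-cell markers were in at most 37.1%, mostly Eomes, B-cell markers in at most 14.8% and erythroid markers in at most 5.42%. All of these cell types can express histone genes, so no cell type served as a measure of free RNA, and doublets were not called.

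Histone transcripts made up 23.7 of every 10000 UMIs in tacrolimus CD8 cells (23.4 to 23.9) and 27.7 in tacrolimus CD4 cells (27.2 to 28.2). At least 1 member was detected in 96.1% of CD8 and 90.4% of CD4 cells. The median cell had 10 of the 45 members in the CD8 gate and 6 in the CD4 gate. Among tacrolimus CD8 cells the 5 most abundant members held 48.5% of all histone UMIs, the first 10 held 64.1% and the first 20 held 80.6%.

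H2A transcripts were the most abundant type in tacrolimus CD8 cells, at 9.70 per 10000 UMIs, or 41.0% of histone UMIs. H1 followed with 6.09 per 10000. H3, H2B and H4 had similar levels of 2.76, 2.61 and 2.49. A nucleosome holds the core histones in equal number, and the UMI levels of the 4 core types were not equal. How completely each transcript was captured was not tested.

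Each type had a leading member. Hist1h2ae, an H2A gene, stood at 3.31 per 10000 UMIs (3.22 to 3.40) and held 34.1% of H2A UMIs. Its nearest H2A neighbour Hist1h2ap stood at 2.46. Hist1h1b, which encodes the linker histone H1.5, led the H1 genes with 2.30 (2.22 to 2.37), followed by Hist1h1e, encoding H1.4, with 1.97. The 5 H1 levels were all apart by their intervals, down to Hist1h1a at 0.287. Hist1h4i held 57.9% of H4 UMIs with 1.44 (1.38 to 1.502), well above Hist1h4d at 0.326, although all H4 genes of this kind encode the same protein. Leads were smaller among H2B and H3 genes. Hist1h2bj led H2B with 0.524 per 10000 UMIs (0.489 to 0.561), and Hist1h3e led H3 with 0.678 (0.638 to 0.720). Among H2B genes ordered by level, 6 of the 10 neighbouring pairs had overlapping intervals, and among H3 genes 6 of 9. The lowest member was Hist1h2bf, an H2B gene, with 0.0284 per 10000.

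There were 5 pairs of H2A and H2B genes whose starts faced away from each other at less than 500 bases, between 176 and 302 bases apart. The levels of the partners had overlapping intervals in 1 of the 5 pairs. Hist1h2ae stood at 3.31 per 10000 UMIs and its partner Hist1h2bg, 176 bases away, at 0.344. The levels of Hist1h2ag and Hist1h2bj, 270 bases apart, were 0.465 and 0.524. The H2A gene was the higher partner in 2 of the 5 pairs.

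The histone level was lowest in cells in which neither kind of cell-cycle gene was detected, and highest in cells with both kinds. Of the 1051 tacrolimus CD8 cells, 110 had neither kind, 62 had S-phase genes only, 570 had both and 309 had mitotic genes only. Their levels were 4.04 per 10000 UMIs (3.61 to 4.51), 13.5 (12.6 to 14.4), 26.4 (26.1 to 26.7) and 21.7 (21.2 to 22.2). Against cells with neither kind this was 3.33-fold (2.93 to 3.80) in S-phase-only cells, 6.54-fold (5.86 to 7.32) in cells with both and 5.37-fold (4.80 to 6.02) in mitotic-only cells. The pooled intervals of the 4 states did not overlap. The median total differed as well, from 7460 UMIs in cells with neither kind to 16711 in cells with both, and its part in the split was not tested. With every cell held to 5000 UMIs, which left out 59 of the CD8 cells, the ratios to cells with neither kind were 4.10, 8.19 and 6.08 in the same order. As means over cells the ratios were 2.69, 4.56 and 3.32, and with states taken from Mcm2 and Ccnb2 alone they were 2.68, 4.21 and 3.49.

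The same order of the 4 states held in tacrolimus CD4 cells, with a wider span. Cells with neither kind stood at 3.46 per 10000 UMIs (3.02 to 3.94, 93 cells) and S-phase-only cells at 11.5 (10.6 to 12.6, 43 cells). Cells with both kinds stood at 39.5 (38.6 to 40.3, 127 cells) and mitotic-only cells at 25.7 (24.7 to 26.8, 72 cells). The ratio of cells with both to cells with neither was 11.4 (10.0 to 13.1).

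Single cells within a state varied widely around its pooled level. In CD8 cells with S-phase genes only, the median cell had 4.77 histone UMIs per 10000 and the middle 50% of cells ran from 2.13 to 19.4. In mitotic-only cells the median was 7.96, with a range of 3.67 to 33.6 for the middle 50%. In cells with both it was 24.1, with 5.98 to 40.9. A level of 20 per 10000 or more was found in 2.73% of CD8 cells with neither kind, 24.2% with S-phase genes only, 53.5% with both and 33.0% with mitotic genes only. The pooled levels of S-phase-only and mitotic-only cells therefore came from a minority of cells with high values. Single cells also moved group values. The highest CD8 cell with neither kind had 28 histone UMIs among 1092 and 21 members, and without it that group fell from 4.04 to 3.69. The highest CD4 cell with both kinds had 486 histone UMIs among 16837, and without it that group fell from 39.5 to 37.5. Without their highest cell, CD4 S-phase-only cells fell from 11.5 to 9.76 and CD4 cells with neither kind from 3.46 to 2.86.

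**Figure D1:**
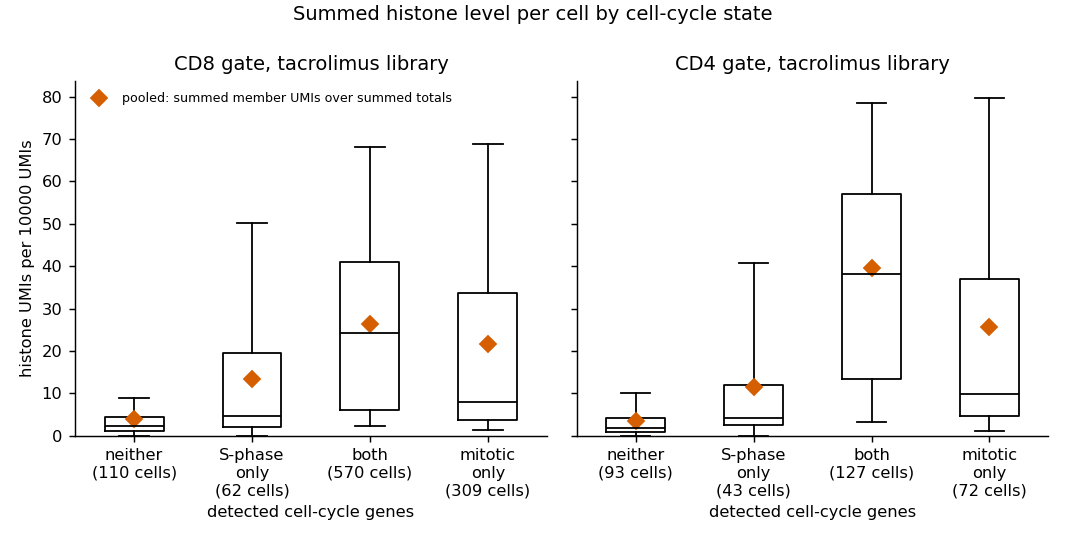
Histone UMIs per 10000 UMIs in single tacrolimus cells, by gate and by the cell-cycle genes detected; boxes show the quartiles, whiskers the 5th to 95th percentiles and diamonds the pooled level. The diamonds lie at 4.04, 13.5, 26.4 and 21.7 in CD8 cells and at 3.46, 11.5, 39.5 and 25.7 in CD4 cells, and the CD8 boxes of neighbouring states overlap.

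The single cell-cycle genes split the cells further. Among CD8 cells without mitotic genes, those with Mcm2 but no Cdc6 had 9.29 histone UMIs per 10000 (8.32 to 10.3, 39 cells). Those with Cdc6, which licenses replication origins, had 19.2 (17.6 to 20.95, 23 cells). Among CD8 cells without S-phase genes, those with Ccnb2, the cyclin B2 gene, but no Cdc20 stood at 10.6 (70 cells). Those with Cdc20, an activator of the anaphase-promoting complex, stood at 23.9 (239 cells). The highest of the CD8 groups named here was Mcm2 with Cdc20 and no Cdc6, at 32.5 (256 cells), above Cdc6 with Cdc20 at 21.3 (172 cells). The CD4 cells gave the same contrast, with 46.9 (65 cells) against 24.8 (29 cells). Cells called mitotic by detection thus included cells with high histone levels and no detected S-phase gene.

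Nearly all members were higher in cells with cell-cycle genes. A member was called higher or lower if it changed at least 1.5-fold and was detected in at least 5% of cells of either group; this is a rule of size and not a test. A group with 0 UMIs was set to 3 counts, which makes its ratio a bound. In CD8 cells with both kinds against neither, 44 of 45 members tested were higher and 0 lower, where 55.3% of the 922 genes tested were higher. The median log2 ratio of the members was 2.50, against 0.73 for all genes. In mitotic-only cells 42 of 44 were higher and 0 lower (backgrounds 37.7% and 19.8%), and in S-phase-only cells 35 of 40 were higher and 1 lower (backgrounds 46.6% and 14.2%). The count higher in S-phase-only cells was 23 with only cells that had fewer than 2 markers of other cells. The number tested and the background were not counted for that setting, so the 2 counts cannot be compared as shares. In the CD4 gate the counts higher were 44 of 45 with both kinds (background 52.7%), 43 of 45 with mitotic genes only (background 43.4%) and 26 of 30 with S-phase genes only (background 39.9%). In these CD4 comparisons 0 members were lower, where 18.8%, 19.5% and 16.1% of all genes were. The members' shares exceeded the background in all 6 comparisons.

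The size of the rise differed among members of 1 type. Hist1h1b went from 0.0878 per 10000 UMIs in CD8 cells with neither kind to 1.13 with S-phase genes only, 2.71 with both and 1.78 with mitotic genes only. Its ratio between both and neither was 30.8 (14.95 to 76.8), resting on 7 UMIs in the lower group. Hist1h1e, another H1 gene, went from 0.502 to 1.34, 2.17 and 1.83, a ratio of 4.31 (3.16 to 6.05) between both and neither. Hist1h1c, encoding H1.2, changed least of these with 0.301, 0.451, 0.678 and 0.696, a ratio of 2.25 (1.502 to 3.54). The intervals of Hist1h1b and Hist1h1c do not overlap.

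Among H2A genes Hist1h2ae had 0.351, 1.32, 3.78 and 2.92 per 10000 UMIs in the same order of states. Hist1h2ap had 0.213, 1.06, 2.74 and 2.38, and Hist1h2ao had 0.0502, 0.451, 0.966 and 0.742. All 3 were highest in CD8 cells with both kinds. The ratio of both to neither was 10.7 for Hist1h2ae, 12.9 (8.01 to 22.1) for Hist1h2ap and 19.2 (7.49 to 70.8) for Hist1h2ao. Of the 17 Hist1h2ap UMIs in cells with neither kind, 11 came from 1 cell, and without it the ratio was 36.0 (16.5 to 98.1). Hist1h2af and Hist1h2ah had 0 UMIs in cells with neither kind, so they were at least 9.47-fold and at least 5.11-fold higher in cells with both. Of the H2B genes, Hist1h2bj went from 0.0753 to 0.403, 0.555 and 0.552. Hist1h2bf had 34 UMIs in cells with both and 0 in cells with neither, but was the 1 member not called.

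Among H3 genes Hist1h3e had 0.138, 0.564, 0.753 and 0.597 per 10000 UMIs, and Hist1h3b had 0.0251, 0.161, 0.512 and 0.386. H4 genes changed less. Hist1h4i went from 0.577 to 0.870, 1.56 and 1.38, a ratio of 2.70 (2.02 to 3.71) between both and neither, and no member had a higher level in cells with neither kind. Hist1h4d, with 0.113, 0.0645, 0.370 and 0.292, was the 1 member called lower in S-phase-only cells, on 4 UMIs against 9. The smallest ratio between both and neither among called members was 1.61, for Hist2h4. All 5 of its UMIs in cells with neither kind came from 1 cell, and without that cell it was at least 2.66-fold higher. The 2 UMIs behind the level of Hist1h3b in these cells also came from 1 cell.

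**Figure D2:**
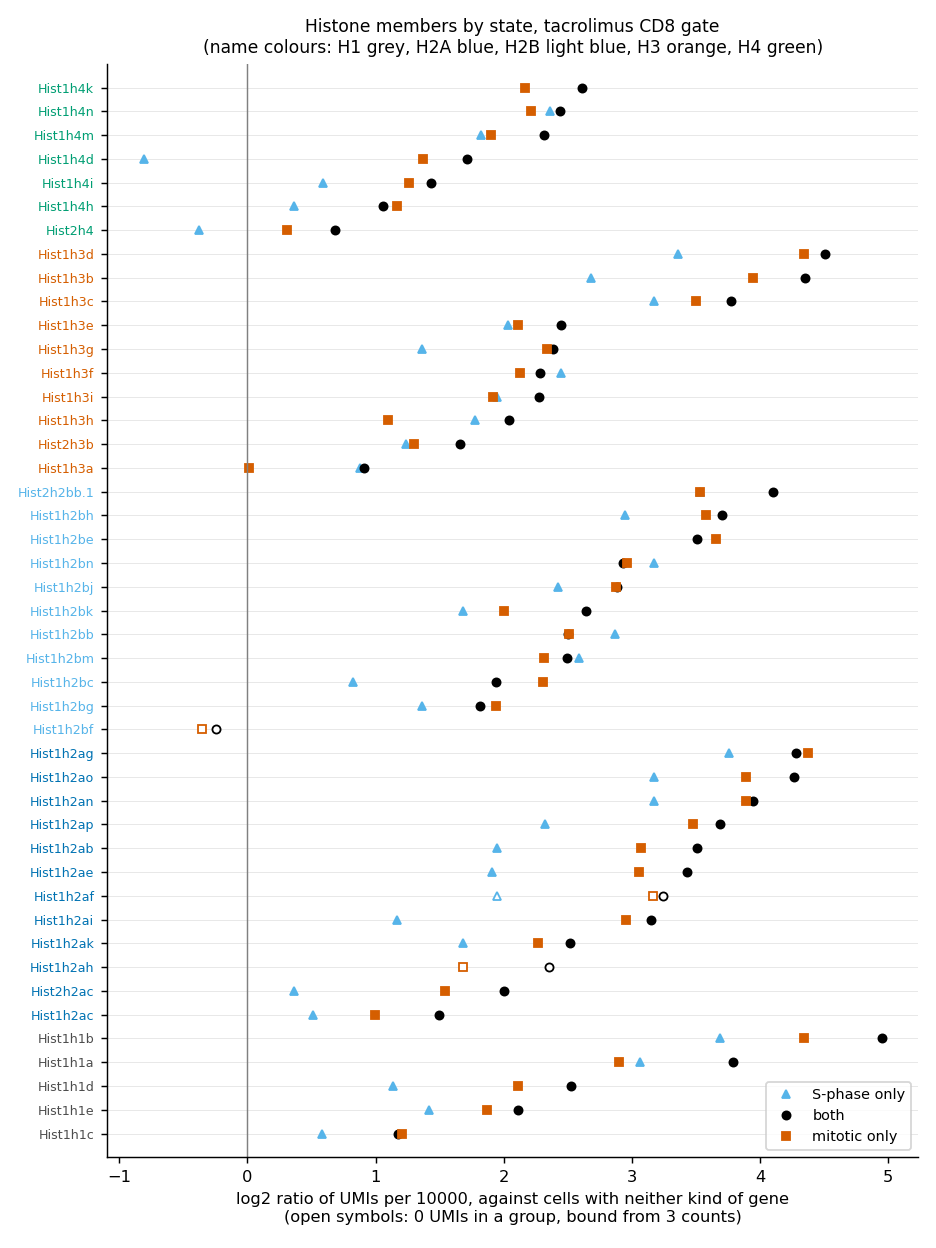
Log2 ratio of each of the 45 members in tacrolimus CD8 cells with S-phase genes only, both kinds or mitotic genes only against cells with neither kind, by histone type; open symbols are bounds where a group had 0 UMIs. Nearly all symbols lie above 0, with Hist1h1b far above Hist1h1c among the H1 genes and Hist1h4d below 0 in S-phase-only cells.

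By type, the median log2 ratio of both to neither in CD8 cells was 3.33 for H2A, 2.64 for H2B, 2.52 for H1, 2.33 for H3 and 1.71 for H4. The make-up of histone RNA shifted with it. H2A held 24.8% of histone UMIs in CD8 cells with neither kind and 32.2% in cells with S-phase genes only, against 41.0% over all CD8 cells. H4 held 23.0% in cells with neither kind and 10.5% over all CD8 cells. In CD4 cells with neither kind H2A held 17.2% and H4 24.7%.

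**Figure D3:**
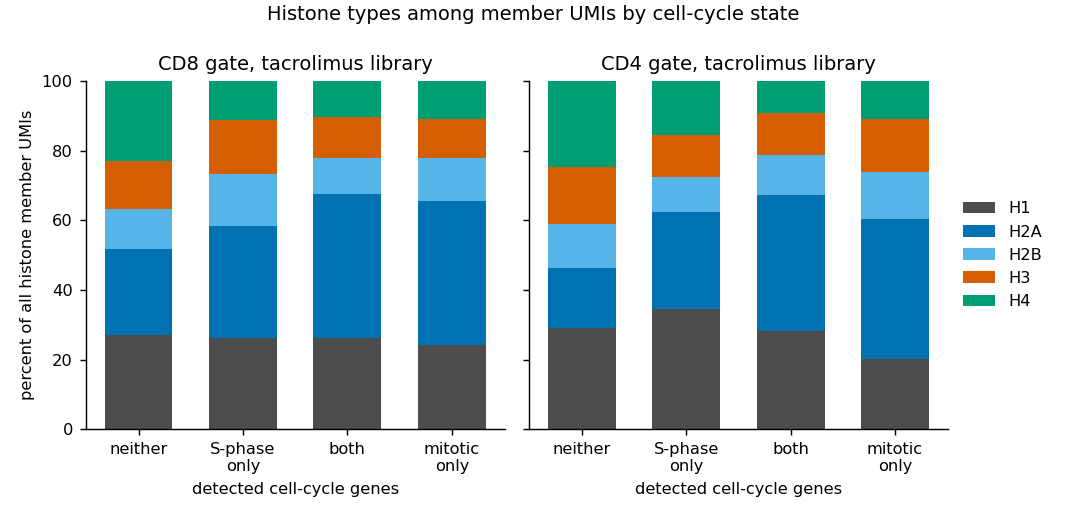
Share of histone UMIs held by each type, in percent, for each gate and state of the tacrolimus library. H2A takes 24.8% in CD8 cells with neither kind of cell-cycle gene and 41.4% in CD8 cells with both, while H4 takes 23.0% and 10.3%.

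S-phase-only cells had lower histone levels than mitotic-only cells. In the CD8 gate 23 of 44 members tested were lower in S-phase-only cells and 2 higher, where 21.8% of all genes tested were lower and 26.5% higher. The 2 higher members were the H3 genes Hist1h3a and Hist1h3h. Of the types, H2A had 10 of 12 members lower with a median log2 ratio of -1.14, while H3 had 3 lower and a median of -0.07. In the CD4 gate 36 of 45 were lower and 1 higher, with backgrounds of 28.3% lower and 20.4% higher.

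Some histone genes also have transcripts longer than the stem-loop form, and 11 members had an annotated transcript of more than 1000 bases. These 11 members held 36.0% of histone UMIs in CD8 cells with neither kind (30.8 to 41.5) and 22.2% in cells with both. In CD4 cells the shares were 42.3% and 24.6%. The median ratio of both to neither in CD8 cells was 4.31 for these members and 5.73 for the 33 others with an annotation. Which transcript form the UMIs came from cannot be read from the deposited values.

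Genes with related roles were counted from named lists, leaving out the 4 genes that defined the states. Slbp, the stem-loop binding protein and the 1 measured gene of 14 listed for histone RNA processing, was higher in CD8 cells with S-phase genes only (4.57-fold), with both (3.73-fold) and with mitotic genes only (1.91-fold), each against neither. Its order over the states differed from that of the histone genes, which were highest in cells with both. Of 7 measured histone chaperones, which carry and deposit histones, all were higher with S-phase genes only and with both, and 6 with mitotic genes only. Of all genes tested, 46.6% were higher with S-phase genes only, 55.3% with both and 37.7% with mitotic genes only. Nasp, an H3 and H4 chaperone, was 3.89-, 4.98- and 2.72-fold higher in that order of states. Chaf1a, a subunit of chromatin assembly factor 1, was 14.8-, 11.2- and 4.86-fold higher.

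The replication-independent and variant histones, which are made outside S phase too, included 4 tested genes, and 3, 4 and 4 of them were higher in S-phase-only cells, cells with both and mitotic-only cells. H2afx, encoding the DNA-damage-marking variant H2A.X, was 2.90-, 9.79- and 16.3-fold higher. H2afz, encoding H2A.Z, was 2.11-, 3.46- and 3.65-fold higher. The ratio of H2afx was largest in mitotic-only cells. All 27 DNA replication genes tested were higher in S-phase-only cells and in cells with both. In mitotic-only cells 24 of 26 were higher, and E2f1, a transcription factor of the G1 to S transition, was lower at 0.39-fold. Of the mitosis genes 22 of 23 were higher in S-phase-only cells, and 24 of 24 in each of the other groups. The backgrounds for these counts of higher genes were 46.6% in S-phase-only cells, 55.3% in cells with both and 37.7% in mitotic-only cells.

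Over the 1051 tacrolimus CD8 cells, the genes outside the family whose log values followed the summed histone value most closely were Top2a (Pearson r = 0.689), Fbxo5 (0.612), Tuba1b (0.597), H2afx (0.591) and Esco2 (0.590). Top2a encodes topoisomerase II alpha and Fbxo5 the anaphase-promoting complex inhibitor Emi1. Single members, each set against the sum of the others, ran from 0.156 for Hist1h2bf to 0.776 for Hist1h2ap. These cells share 1 library and differ in depth, and the log total of a cell had r = 0.336 with the histone value.

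Pooled over cells, the histone level of the tacrolimus library was lower in the CD8 than in the CD4 gate, with a ratio of 0.856 (0.838 to 0.874). The median cell went the other way, with 10.5 histone UMIs per 10000 in the CD8 and 8.24 in the CD4 gate, and the ratio of means over cells was 0.971. Of 44 members tested, 9 were lower in CD8 cells and 0 higher where 15.8% of all genes were lower and 12.2% higher. The members' median log2 ratio was -0.33, against 0.04 for all genes. The members' share was close to the background of lower genes, and at a fold of 2 the count lower was 0. Hist1h4n had the lowest ratio, 0.50 (0.41 to 0.61), and Hist1h2bj, the leading H2B gene, had 0.62 (0.55 to 0.71). The abundant gene Hist1h1b had the same level in both gates to 3 digits, 2.30 per 10000 UMIs, and Hist1h2ae had a ratio of 1.01. The gates differed in their states, with both kinds of cell-cycle gene in 54.2% of CD8 cells and 37.9% of CD4 cells.

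Within cells with both kinds the gap was wider, at 0.669 (0.653 to 0.686). There 28 of 45 members were lower in CD8 cells and 0 higher, with a background of 17.3% lower and 14.5% higher. The count lower was 18 with only cells that had fewer than 2 markers of other cells, and 7 at a fold of 2. Backgrounds under these settings were not counted, nor was the number tested under the marker limit. Hist1h1e stood at 2.17 per 10000 UMIs in these CD8 cells and 4.18 in the CD4 cells, a ratio of 0.52. Hist1h1a, another H1 gene, had a ratio of 0.44 and Hist1h2bj one of 0.47. Single CD4 cells weighed on these ratios. In CD4 cells with both kinds, 1 cell held 166 of the 883 Hist1h1e UMIs. For Hist1h1a 1 cell held 43 of 167, and for Hist1h2bj 21 of 251. Hist1h4i, at 0.95, and Hist1h3e, at 0.96, were nearly level. In mitotic-only cells 16 of 45 members were lower and 1 higher in CD8 cells, with backgrounds of 21.0% and 12.6%. In S-phase-only cells the direction differed, with 15 of 40 members higher and 2 lower, against 23.5% and 17.8% of all genes. Of the DNA replication and mitosis lists, 0 of 27 and 0 of 24 genes differed by the size rule between the gates over all cells. Within S-phase-only cells, 11 of 23 mitosis genes were higher in CD8 cells and 2 lower. There 1 of 27 DNA replication genes was higher and 1 lower. Among cells with both kinds, 1 of 24 mitosis genes was lower in CD8 cells, and 0 of 27 DNA replication genes differed.

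For the comparison of treatments, UMIs of tacrolimus cells were thinned by rank to anti-IL-2 totals, because a deeper cell shows more genes. In the CD8 gate few members differed by the size rule. A cell had 9.69 detected members with anti-IL-2 and 11.2 with tacrolimus, a ratio of 0.866 (0.842 to 0.891). Of 44 members tested, 1 was lower with anti-IL-2, the H3 gene Hist1h3g, and 0 were higher. Of all genes tested 6.24% were lower and 11.8% higher, so the members' count was under the background. Without thinning 5 were lower and 0 higher, where 16.1% and 7.68% of all genes were. The share of CD8 cells with Hist1h3g was 10.0% (8.08 to 12.2) under anti-IL-2 and 15.6% (13.5 to 17.9) under tacrolimus. For Hist1h2ae the shares were 45.9% (42.5 to 49.4) and 60.4% (57.4 to 63.4), and for Hist1h4i 48.5% and 65.1%. The intervals of these 2 genes did not overlap, but their ratios of 0.760 and 0.745 did not reach the size rule. Hist1h1e was level, with 54.3% and 57.2%.

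In the CD4 gate nearly every member was found in fewer cells with anti-IL-2. A cell had 3.65 detected members with anti-IL-2 and 8.81 with tacrolimus, a ratio of 0.414 (0.388 to 0.441). Of 44 members tested, 43 were lower and 0 higher, where 30.5% of all genes were lower and 17.3% higher. Without thinning all 44 were lower, where 49.9% of all genes were lower and 8.55% higher. The median log2 ratio was -1.33 for the members and -0.10 for all genes. Hist1h2ae had a UMI in 13.3% of CD4 cells (10.1 to 17.0) under anti-IL-2 and in 46.2% (40.8 to 51.8) under tacrolimus. Hist1h1b was detected in 12.8% and 40.0%, and Hist1h4i in 15.8% and 43.2%. For these 3 genes the tacrolimus share was more than 2-fold the anti-IL-2 share. Hist1h3d had the lowest ratio of the genes named here, with 3.25% against 16.1%. Hist1h1e had a smaller gap, with 32.3% against 49.9%. The member not called was Hist2h4, with 4.75% against 6.68%. Of the other lists in CD4 cells, 24 of 27 DNA replication genes and 24 of 24 mitosis genes were lower with anti-IL-2. So were 3 of 7 histone chaperones and 0 of 4 variant histones. Without thinning the counts lower were 27 of 27, 24 of 24, 3 of 7 and 2 of 4 in that order.

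**Figure D4:**
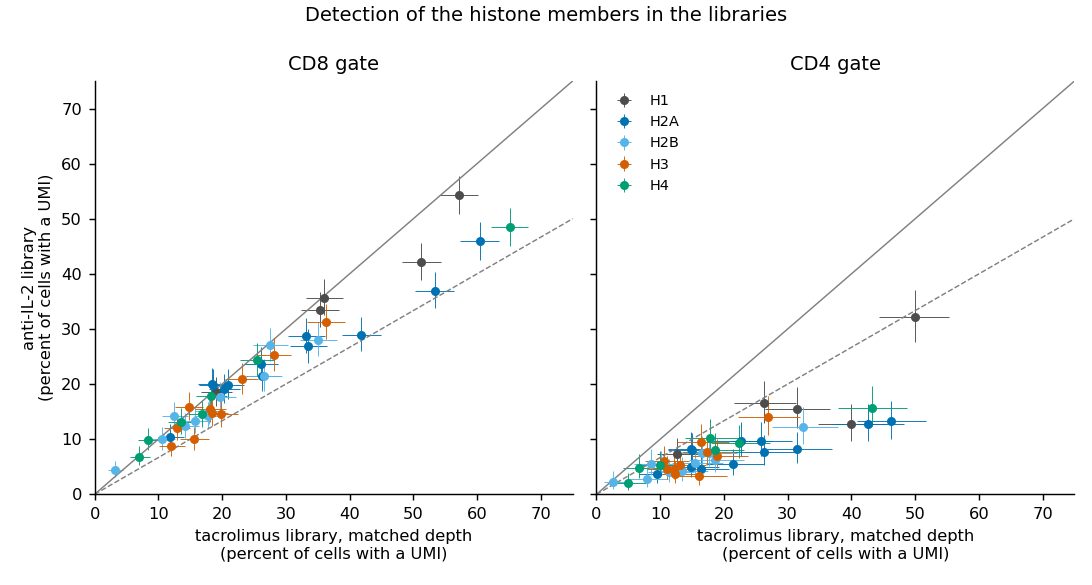
Share of cells with a UMI of each member in the anti-IL-2 library against the tacrolimus library at matched depth, in percent, for the CD8 and the CD4 gate; the solid line marks equal shares and the dashed line a 1.5-fold lower share. In the CD8 gate most points lie below the solid line, with 6 members above it, and 1 of the 44 tested lies beyond the dashed line. In the CD4 gate 43 of the 44 tested lie beyond the dashed line.

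The gates also differed in how many cells had cell-cycle genes. With anti-IL-2, 73.3% of CD4 cells had neither kind and 8.25% had both. With tacrolimus, 27.8% of CD4 cells had neither kind and 37.9% had both. In the CD8 gate 33.1% of anti-IL-2 cells and 10.5% of tacrolimus cells had neither kind. The median CD4 cell had 5859 UMIs with anti-IL-2 and 11031 with tacrolimus. Held to 5000 UMIs, cells with neither kind made up 69.7% of 253 anti-IL-2 and 31.6% of 298 tacrolimus CD4 cells, leaving out 147 and 37 shallower cells. Among CD8 cells they made up 37.0% of 737 and 14.95% of 992 cells, leaving out 112 and 59. The direction was the same at both depths.

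Within states the treatments differed less. CD4 cells with both kinds had 16.7 detected members with anti-IL-2 (33 cells) and 20.1 with tacrolimus, a ratio of 0.827, and 10 of 45 members were lower and 1 higher, against 11.5% and 12.6% of all genes. CD4 cells with mitotic genes only had 11.9 and 11.0 members, a ratio of 1.08, with 2 of 45 lower and 5 higher, against 13.9% and 13.0%. CD4 cells with neither kind had 1.14 and 1.63 members, a ratio of 0.701, and 6 of 10 members tested were lower, against 14.1%. CD4 cells with S-phase genes only had a ratio of 0.638, and 15 of 31 were lower and 2 higher, against 18.4% and 18.2%. The gap of the whole gate was thus wider than that within any of the 4 states. In the CD8 gate, cells with both kinds had 16.5 and 16.1 members, a ratio of 1.03, with 0 of 45 members lower and 1 higher, against 6.74% and 9.91%. CD8 cells with neither kind had 0 of 11 members lower and 4 higher, against 10.2% and 25.3%, and mitotic-only cells 0 of 44 lower and 3 higher, against 6.19% and 13.5%. In S-phase-only CD8 cells 10 of 42 were lower and 9 higher, against 13.9% and 17.9%.

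**Figure D5:**
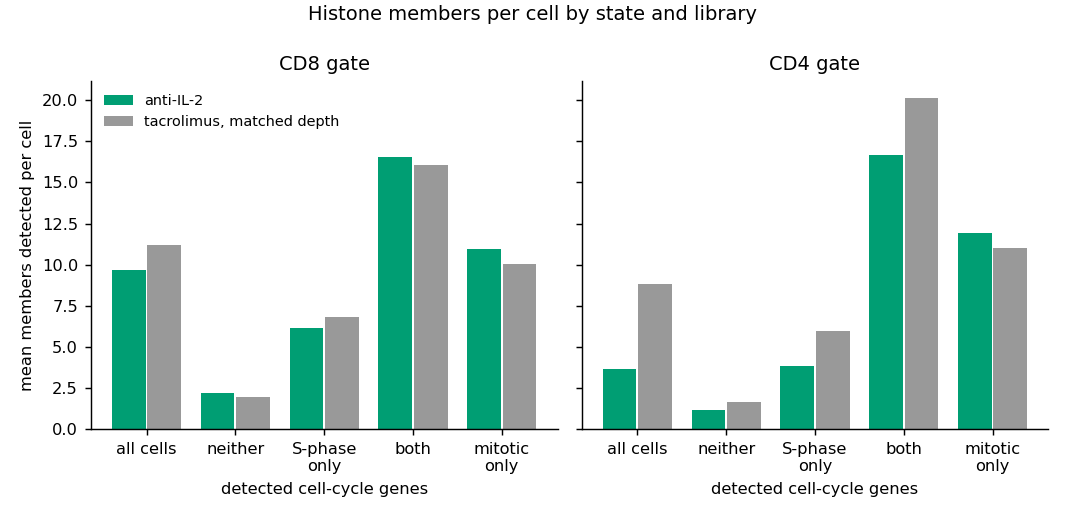
Mean number of the 45 members detected per cell, by gate and state, for anti-IL-2 cells and for tacrolimus cells thinned to matched depth. In cells with both kinds of cell-cycle gene the means are 16.5 and 16.1 in the CD8 gate and 16.7 and 20.1 in the CD4 gate.

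The anti-IL-2 library showed the same relation to cell-cycle genes as the tacrolimus library. Hist1h1b was detected in 8.90% of its CD8 cells with neither kind, 26.9% with S-phase genes only, 72.1% with both and 48.5% with mitotic genes only. Hist1h2ae gave 12.8%, 29.9%, 75.1% and 53.6%. Both genes were found least often in cells with neither kind and most often in cells with both. These shares were not held to 1 depth, and the estimated median total was 6586 UMIs with neither kind and 17414 with both. Held to 5000 UMIs, these CD8 cells had a mean of 1.77 members with neither kind and 3.71 with S-phase genes only. The mean was 7.91 with both and 6.95 with mitotic genes only. With cells held to 5000 UMIs, all 43 members tested were higher in anti-IL-2 CD8 cells with both kinds against neither (background 33.0%), and all 42 with mitotic genes only (background 27.7%). In S-phase-only cells 26 of 31 were higher and 1 lower (backgrounds 27.0% and 12.2%). In the anti-IL-2 CD4 gate all 37 tested were higher with both kinds (background 34.0%), all 34 with mitotic genes only (background 31.4%), and 9 of 12 with S-phase genes only (background 23.6%), where 1 was lower (background 13.5%). Tacrolimus cells held to the same depth gave, in the CD8 gate, 42 of 42 with both kinds (background 47.4%), 37 of 38 with mitotic genes only (background 34.5%), and 27 of 30 higher and 1 lower with S-phase genes only (backgrounds 37.6% and 8.8%). In the CD4 gate they gave 44 of 44 (background 45.0%), 40 of 42 (background 36.3%) and 16 of 17 (background 32.6%).

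Transcripts of other tissues moved with the library. At least 1 of 12 measured genes of pancreatic acinar cells was detected in 73.5% of tacrolimus CD8 cells and 71.3% of tacrolimus CD4 cells, with single genes in 3.24 to 37.2% of the CD8 cells. The shares were 6.71% and 9.25% in anti-IL-2 CD8 and CD4 cells, where 3 of the 12 were at 0. Cst3, listed here as a myeloid marker, was in 59.0% of anti-IL-2 and 76.7% of tacrolimus CD4 cells. The part of such RNA in the histone differences was not tested.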

How the data were processed

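Both spleen T-cell libraries (1 per treatment) were prepared with a 10x 5′ kit for a NextSeq500 run, per the labels' protocols. Cell Ranger 3.1.0, Seurat and mm10 are named in the submitters' processing notes; other steps are not given in the sources used here. The authors deposited natural log values for 2000 genes. Tacrolimus values were ln(1 + UMIs scaled to 50000 per cell), and 100.0% came out as whole UMIs (tolerance 0.001). Values below 0 made up 13.9% of the deposited anti-IL-2 table and zeros 42.0%, a pattern of batch-integrated data. The design had assumed UMI counts. A repeated set of 308 anti-IL-2 columns was used once.

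For anti-IL-2 cells, totals were read from unshifted values in 188 cells and from pairs of values in 76, and fitted on detected genes in 1287. Each gene's integration shift was estimated over 30 neighbouring cells, and a value above 0.5 of 1 UMI was a detection. A simulated stand-in for the anti-IL-2 library (2000 genes, 844 cells) was made from tacrolimus cells only. A random part of them was given known changes in some genes and integrated onto the other tacrolimus cells. Detection was right for 99.7% of its values and 99.6% for histone genes, with zeros counted. Gene calls recovered numbered 49 of 49 at 0.25-fold, 26 of 27 at 0.5-fold, 11 of 11 at 2-fold and 35 of 40 at 4-fold. There was 1 false call, at 0.5-fold, and the largest error in a histone gene's share of cells was 3.3 points. Only 70.5% of totals were within 1.25-fold. How differences in depth and cell states between the 2 libraries affect recovery was not tested. Depth matching thinned tacrolimus cells to anti-IL-2 totals by rank. Genes were named by size (1.5-fold, 5% of cells), with every member counted and lists of related genes named in full groups. Members and lists were chosen with earlier results of these data known. Intervals are 95% exact and cover counting error. Doublets were not called. Alternatives changed the gates, states, depth, size rule and recovery. Python 3.11.15, numpy 2.4.6, pandas 2.3.3, scipy 1.17.1, numba 0.67.0 and matplotlib 3.10.9 were used.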

Additional observations from a re-analysis of the deposited data

Results flagged for a closer look

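Cells outside both gates entered no comparison, yet they held histone transcripts. In the tacrolimus library, cells with Cd4 and Cd8 UMIs together (94 cells) had 25.1 histone UMIs per 10000, and cells with no UMI of either marker (208 cells) had 16. In the anti-IL-2 library at least 1 member was detected in 87.7% of cells with both markers (106 cells) and in 67.3% of cells with no marker (196 cells).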

How the results depend on the processing

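No paired analysis was possible because each treatment had 1 library, and no difference has a replicate check. The cause of the changes below was not tested. Backgrounds were not counted for the limit on markers of other cells or for the fold of 2. The ratios to CD8 cells with neither kind of cell-cycle gene (S-phase only, both, mitotic only) were 2.68, 4.21 and 3.49 with states from Mcm2 and Ccnb2 alone, 2.69, 4.56 and 3.32 as means over cells, and 4.10, 8.19 and 6.08 at 5000 UMIs. The CD8 to CD4 ratio was 0.833 in cells with at least 200 genes, 0.971 as a mean over cells and 0.923 at 5000 UMIs. With fewer than 2 markers of other cells allowed, it was 0.917 over all cells and 0.731 in cells with both kinds, 18 members were lower there, 23 were higher in S-phase-only CD8 cells, 4 were lower with anti-IL-2 in the CD8 gate, and the CD4 library ratio was 0.370. At a fold of 2, 0 members were lower in CD8 than CD4 cells, 7 in cells with both kinds, and 0 with anti-IL-2 in the CD8 gate. Leaving out the highest cell of each group, which was chosen after seeing the data, gave 8.63 for CD4 mitotic-only cells, and 0.890 and 0.70 for CD8 to CD4. Leaving out, also chosen after seeing the data, the neither-kind cell with most UMIs of a gene moved Hist1h2ap from 12.9 to 36.0 in CD8 cells with both kinds. The library ratios of members per cell (CD8, CD4) and the CD8 members lower were 0.760, 0.307 and 5 without thinning, 0.906, 0.455 and 0 with the integration shift left in, and 0.900, 0.444 and 0 with the median of all genes set to 0; with detection at 0.35 of 1 UMI 0 were lower. Within states, library ratios and members lower were 1.13 and 0 (CD8) and 0.701 and 6 (CD4) with neither kind, 0.905 and 10, and 0.638 and 15 with S-phase genes only, 1.03 and 0, and 0.827 and 10 with both, and 1.09 and 0, and 1.08 and 2 with mitotic genes only, where the CD4 ratio turned. Single CD4 library ratios that turned were Hist1h1c 1.17 with neither kind, Hist1h1d 1.01 and Hist1h3e 1.04 with both, and, with mitotic genes only, Hist1h2ap 1.07, Hist1h1b 1.04, Hist1h1e 1.06, Hist1h4i 1.06, Hist1h1d 1.57, Hist1h2ao 1.07, Hist1h3e 1.04 and Hist1h1c 1.33.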
